A study of Homo sapiens with 6 samples.

Results

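Transcript levels of 40 genes of cell-cell junctions were examined by RNA-Seq in SW480, a long-established line of human colorectal cancer cells, after knockdown of PCYT2, the rate-limiting enzyme of phosphatidylethanolamine synthesis. The members were chosen by symbol for the place of their proteins in the junction, with earlier results of these data known, and were found through the Ensembl identifiers of the deposited tables with GENCODE release 29. All 40 were listed in at least 1 library, out of 21539 identifiers in the series, or 19655 genes once identical rows were merged. They comprised 12 membrane proteins of tight junctions, 6 plaque and polarity proteins of tight junctions, 9 cadherins, catenins, nectins and afadin, 9 desmosome proteins and 4 immunoglobulin-type adhesion molecules.

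Epithelial cells are held together by a chain of junctions along their lateral membranes. Tight junctions lie at the top, where claudins and occludin seal the space between cells and plaque proteins such as the zonula occludens proteins and cingulin tie them to actin. Adherens junctions join cells through cadherins and nectins, which catenins and afadin link to actin, and desmosomes join them through desmogleins and desmocollins, which plakoglobin, plakophilins and desmoplakin link to keratin filaments. Loss of these contacts is part of epithelial-mesenchymal transition (EMT), the change of cell state that the study examined in relation to PCYT2.

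The cells carried a nontargeting hairpin (shNT) or either of 2 hairpins against PCYT2 (shPcyt2-1 or shPcyt2-2), and 2 libraries were labelled for each group. Per the study's methods, the hairpins were delivered in the lentiviral vector pLKO.1 and the cells were selected with puromycin, so all 3 groups are selected populations of 1 line. Nothing in the labels says whether the libraries of a group came from separate cultures, and p-values therefore measure only the spread between these libraries, which may be technical. The tables hold values read as FPKM (fragments per kilobase of transcript, relative to all fragments of the library), which summed to between 396467 and 402612 per library. They hold no read totals, and the 2 libraries per group limit the precision of every value.

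PCYT2 itself lay at 11.6 and 13.8 FPKM with shNT, at 7.11 and 7.36 FPKM with shPcyt2-1 and at 6.71 and 6.18 FPKM with shPcyt2-2. Every knockdown library was thus below both shNT libraries. On the log2 scale PCYT2 fell by 0.73 with shPcyt2-1 (limma adjusted p = 0.00204), and the fall with shPcyt2-2 was of 0.88 (limma adjusted p = 0.00261). The hairpins differed by -0.15 (95% interval -0.37 to 0.08, limma adjusted p = 0.309). All fold changes here are differences of log2(FPKM + 1), a scale that understates the change of genes with low values.

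The cells carried the transcripts of an epithelial line. Of 10 epithelial markers the most abundant, the keratin gene KRT8, lay between 2734 and 3861 FPKM in the 6 libraries, and EPCAM, an epithelial adhesion molecule, lay between 258 and 312 FPKM. KRT20, a keratin of differentiated colon cells, was at most at 0.0950 FPKM and was not listed in 3 libraries. The 8 fibroblast markers together summed to between 2.28 and 4.13 FPKM and the 5 endothelial markers to between 0.791 and 1.37 FPKM. The 5 leukocyte markers summed to between 17.1 and 23.7 FPKM, nearly all of it CD68, which many epithelial lines also express. The pan-leukocyte gene PTPRC and the collagen gene COL3A1 were not listed in any library.

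Claudin, plakoglobin and alpha-catenin genes were the most abundant of the 40 members. CLDN4 lay at 214 ± 11.9 FPKM (SD, n = 2) with shNT and CLDN7 at 202 ± 2.90 FPKM (SD, n = 2), and CLDN4 was the higher of the pair in each shNT library. JUP, which encodes plakoglobin, followed at 184 ± 4.64 FPKM (SD, n = 2), and CTNNA1, which encodes alpha-catenin, at 153 ± 0.169 FPKM (SD, n = 2). Next came PKP3, a plakophilin gene, at 89.7 ± 6.26 FPKM (SD, n = 2), and DSP, which encodes desmoplakin, at 50.1 ± 1.60 FPKM (SD, n = 2). The plaque and polarity genes were far lower, and their most abundant members CGN (cingulin) and PATJ lay at 7.76 ± 0.611 FPKM (SD, n = 2) and 7.41 ± 0.692 FPKM (SD, n = 2). Occludin (OCLN) was at 1.12 ± 0.0576 FPKM (SD, n = 2), and the desmocollin gene DSC2 at 1.33 ± 0.0477 FPKM (SD, n = 2).

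Transcripts were also summed over each junction type. The 12 membrane genes of tight junctions summed to 535 and 556 FPKM with shNT, 505 and 527 FPKM with shPcyt2-1 and 527 and 534 FPKM with shPcyt2-2, and each knockdown library was below the lower shNT library. The 6 plaque and polarity genes summed to 35.2 and 35.4 FPKM with shNT, to 28.9 and 29.3 FPKM with shPcyt2-1 and to 39.0 and 39.3 FPKM with shPcyt2-2. These 3 groups did not overlap, with shPcyt2-1 lowest and shPcyt2-2 highest. The 9 desmosome genes summed to 404 and 423 FPKM with shNT, and the sums were below both of these in all 4 knockdown libraries, which lay between 362 and 385 FPKM. The 9 genes of cadherins, catenins, nectins and afadin summed to 267 and 274.5 FPKM with shNT, 254.5 and 255 FPKM with shPcyt2-1 and 305 and 292 FPKM with shPcyt2-2, again in 3 groups that did not overlap. The 4 immunoglobulin-type genes summed to 6.34 and 5.19 FPKM with shNT and were higher in the 4 knockdown libraries, between 6.85 and 8.08 FPKM. Sums are led by the most abundant members and were not tested. RNA came from bulk cultures, in which fewer cells with a transcript and less of it per cell cannot be told apart.

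**Figure D1:**
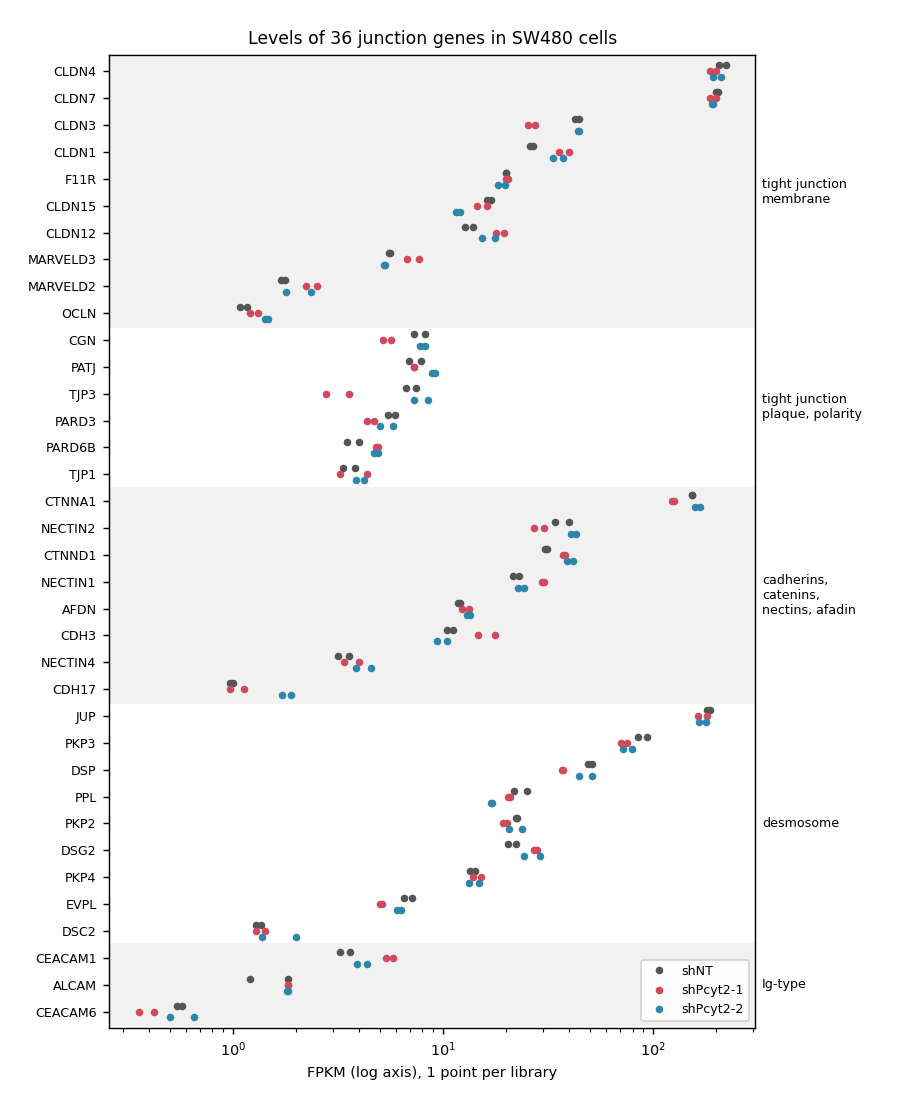
Levels of the 36 tested junction genes, ordered within each junction type; the horizontal axis gives FPKM on a log scale and each point is 1 library of shNT, shPcyt2-1 or shPcyt2-2. CLDN4, CLDN7, JUP and CTNNA1 lie above 100 FPKM in every library, and the shPcyt2-1 points of TJP3 and CLDN3 lie left of those of the other groups.

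Of the 40 members, 36 had a mean of at least 0.5 FPKM over the 6 libraries and were tested. CLDN2 (at most 0.0212 FPKM, and not listed in 3 libraries), CLDN23 (0.388 to 0.587 FPKM), NECTIN3 (0.0586 to 0.195 FPKM) and CEACAM5 (0.0892 to 0.480 FPKM) were below this limit. At this limit the members closest to it were CEACAM6, with a mean of 0.508 FPKM, on its upper side and CLDN23, with a mean of 0.488 FPKM, on its lower side. The tested members were fitted with limma among all 12756 tested genes, and a gene is said to have risen or fallen where its Benjamini-Hochberg adjusted p was under 0.05. In a single simulated data set, the share of false calls for each hairpin against shNT was above this threshold. That set held fewer changed genes than were called here with either hairpin, and no difference between hairpins. The rate of false calls in the data is thus not known.

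Promoter sequence is shown for 5 members that were called with shPcyt2-1. DSP, DSG2 and CEACAM1 were picked because they also hold a motif searched for. TJP3 and CLDN3 had the largest falls of tested members with that hairpin and hold neither motif. The sequences are the 250 bases before the annotated start of the gene, from RefSeq on GRCh38.p14, 5′ to 3′ along the gene's strand. Starts are those of RefSeq, and for 4 of the 5 genes they differ from those of GENCODE release 29: the TJP3 and CEACAM1 windows lie within the GENCODE gene, and the DSP and DSG2 windows run past its start. Capitals mark the motifs CAGGTG or CACCTG, the E-box letters that SNAI and ZEB repressors are known to bind, and CATTCC or GGAATG, the letters of the TEAD factors that work with YAP1. The 5 windows are chr6:7541421-7541670 (plus strand) for DSP, chr18:31497927-31498176 (plus strand) for DSG2, chr19:42528482-42528731 (minus strand) for CEACAM1, chr19:3708134-3708383 (plus strand) for TJP3 and chr7:73770271-73770520 (minus strand) for CLDN3.
DSP: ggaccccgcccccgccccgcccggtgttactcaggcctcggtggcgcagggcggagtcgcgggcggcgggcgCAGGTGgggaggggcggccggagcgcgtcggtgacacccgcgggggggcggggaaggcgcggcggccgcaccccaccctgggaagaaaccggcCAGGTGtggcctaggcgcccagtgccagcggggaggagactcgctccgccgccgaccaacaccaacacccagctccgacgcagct
DSG2: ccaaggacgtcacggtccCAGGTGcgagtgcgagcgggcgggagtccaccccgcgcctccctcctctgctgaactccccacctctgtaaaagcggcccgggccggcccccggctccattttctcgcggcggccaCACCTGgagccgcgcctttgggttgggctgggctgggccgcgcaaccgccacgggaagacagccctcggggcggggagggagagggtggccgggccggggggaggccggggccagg
CEACAM1: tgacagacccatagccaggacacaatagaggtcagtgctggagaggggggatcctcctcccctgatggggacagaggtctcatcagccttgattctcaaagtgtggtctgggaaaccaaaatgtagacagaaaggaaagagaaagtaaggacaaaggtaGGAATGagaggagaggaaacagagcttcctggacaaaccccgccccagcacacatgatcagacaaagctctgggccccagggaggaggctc
TJP3: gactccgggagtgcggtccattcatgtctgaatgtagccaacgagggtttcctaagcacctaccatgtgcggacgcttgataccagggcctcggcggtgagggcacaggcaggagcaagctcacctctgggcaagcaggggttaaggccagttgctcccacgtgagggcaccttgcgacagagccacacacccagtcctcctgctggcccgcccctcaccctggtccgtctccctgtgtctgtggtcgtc
CLDN3: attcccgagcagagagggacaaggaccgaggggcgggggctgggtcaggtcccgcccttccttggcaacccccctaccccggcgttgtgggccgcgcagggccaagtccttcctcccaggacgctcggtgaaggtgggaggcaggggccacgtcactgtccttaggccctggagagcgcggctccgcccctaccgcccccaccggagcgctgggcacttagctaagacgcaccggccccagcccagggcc

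Promoter windows were matched for 27 of the 40 members. The E-box letters, on either strand, were in 10 of these 27 windows (37.0%) and in 17.5% of the 35116 promoter windows of all genes. The 10 were AFDN, ALCAM, CEACAM5, DSC2, DSG2, DSP, NECTIN4, OCLN, PATJ and TJP1. The DSP and DSG2 windows each held the letters at 2 places, and DSP fell with shPcyt2-1 while DSG2 rose. AFDN, ALCAM, DSC2, NECTIN4, OCLN, PATJ and TJP1 were not called with either hairpin, and CEACAM5 was not tested. The TEAD letters were in 1 of the 27 windows, that of CEACAM1, and in 11.9% of all windows. A match of letters is a description of the sequence and not a binding site.

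With shPcyt2-1, junction genes moved in both directions. Of the 36 tested members, 17 were called (47.2%), 9 higher and 8 lower, where 26.7% of all tested genes were called, 16.5% higher and 10.1% lower. The members were chosen with earlier results of these data known, so these shares do not show how junction genes as a class responded. Of 42 tested genes of a wider junction list, given below, 21.4% were called with this hairpin. The median log2 fold change of the members was 0.01, beside 0.07 for all tested genes. With median-ratio scaling of the libraries the split was 7 higher and 10 lower, and among all genes the calls went from 2109 higher of 3400 to 1420 higher of 3178. The count was 10 without shNT replicate 2, where 13.6% of all tested genes were called, and 6 without shPcyt2-1 replicate 1, where 8.99% were. One fibroblast marker moved with this hairpin as well: LUM lay at 0.789 and 0.863 FPKM with shNT, 2.17 and 2.24 FPKM with shPcyt2-1 and 1.36 and 1.09 FPKM with shPcyt2-2, and its part in the junction results was not tested. Without shPcyt2-1 replicate 2, the calls lost were those of CTNND1, DSG2, MARVELD3 and PARD6B, which were higher, and EVPL, which was lower. The majority of the remaining calls was then lower. Of the calls, those of TJP3, CLDN3, CEACAM1, CLDN1, DSP and NECTIN1 remained under all 14 alternatives run.

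With shPcyt2-2, 5 of the 36 tested members were called (13.9%), 3 higher and 2 lower, where 12.4% of all tested genes were called, 7.69% higher and 4.74% lower. The share of called members was thus near that of all genes. The median log2 fold change was 0.08, beside 0.04 for all tested genes. With median-ratio scaling the members' split was still 3 higher and 2 lower, while among all genes the calls went from 981 higher of 1585 to 764 higher of 1644. The count was 1 without shNT replicate 2, where 3.16% of all tested genes were called. Without shPcyt2-2 replicate 1 it was 0 by limma, where 0.98% of all tested genes were called, and 6 members had an unadjusted p under 0.05, beside 2757 of all 12756 tested genes. Without an expression limit, which raised the number of genes tested, it was 0 by limma as well, with 0.631% of all tested genes called, and 11 of the 40 members had an unadjusted p under 0.05, beside 4298 of all 19655 genes. Both hairpins were compared with the same shNT libraries, so their results are not independent of each other.

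**Figure D2:**
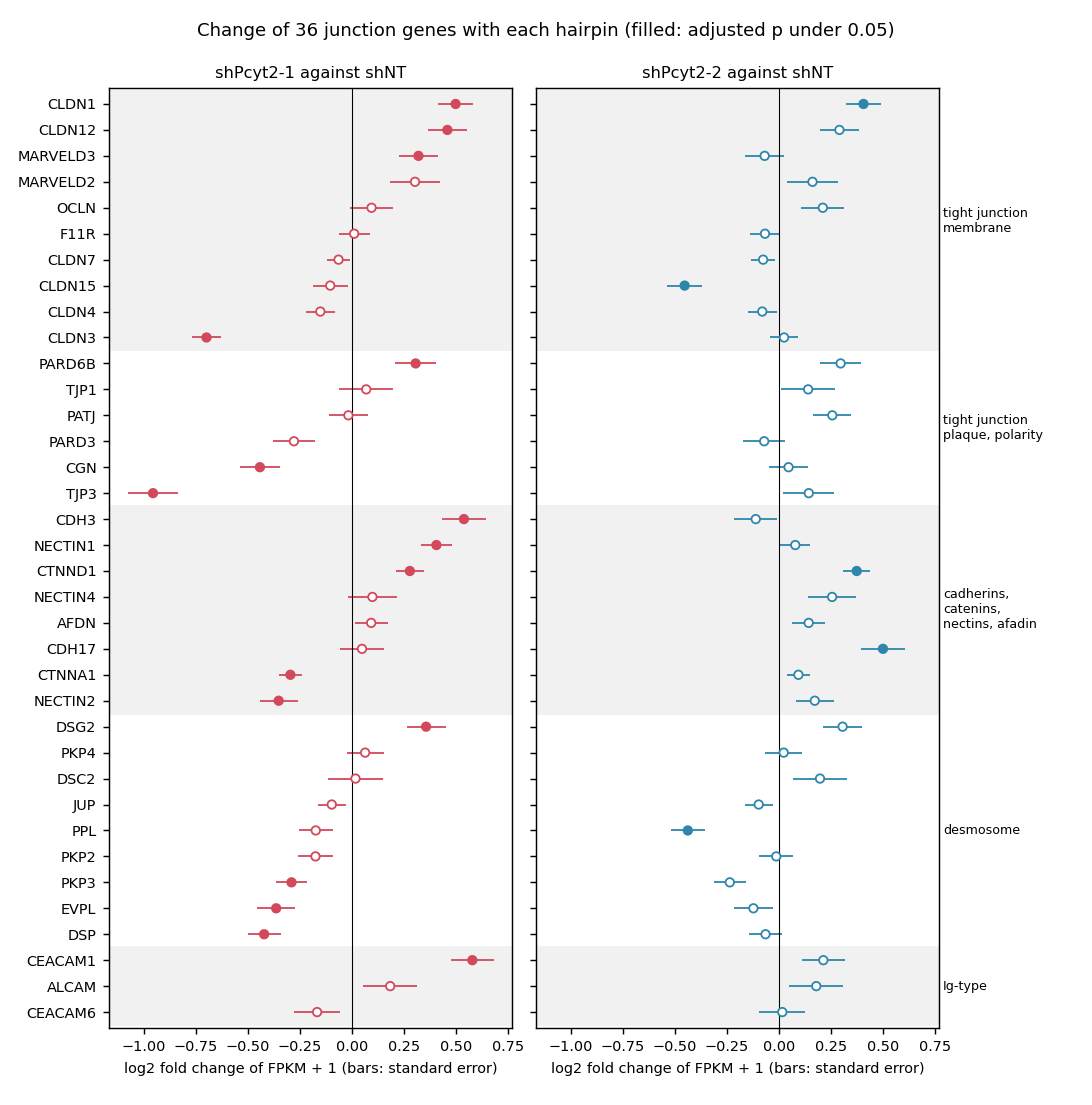
Log2 fold change of FPKM + 1 against shNT (horizontal axis, bars: standard error) for the 36 tested junction genes with shPcyt2-1 (left) and shPcyt2-2 (right); filled points have a limma adjusted p under 0.05. TJP3 (-0.96) and CLDN3 (-0.70) lie far to the left with shPcyt2-1 and near 0 with shPcyt2-2, whereas CLDN1 and CTNND1 are filled and to the right with both.

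Among the membrane proteins of tight junctions, claudins went in different directions. With shPcyt2-1, 3 of the 10 tested genes rose (CLDN1, CLDN12 and MARVELD3) and 1 fell (CLDN3), where 16.5% of all tested genes rose and 10.1% fell. With shPcyt2-2, CLDN1 rose and CLDN15 fell, beside 7.69% and 4.74% of all tested genes. CLDN3, a sealing claudin of colonic epithelium (ENSG00000165215, chromosome 7 of GRCh38, 73768997 to 73770270), lay at 42.7 and 44.3 FPKM with shNT, 25.4 and 27.4 FPKM with shPcyt2-1 and 44.0 and 44.5 FPKM with shPcyt2-2. Only the shPcyt2-1 libraries were low, and those of shPcyt2-2 overlapped shNT. The log2 fold change was -0.70 (standard error 0.07, limma adjusted p = 0.000576) with shPcyt2-1 and 0.02 (95% interval -0.13 to 0.18, limma adjusted p = 0.846) with shPcyt2-2.

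CLDN1, another sealing claudin (ENSG00000163347, chromosome 3 of GRCh38, 190305701 to 190322475), was at 27.0 and 25.9 FPKM with shNT, 39.7 and 35.8 FPKM with shPcyt2-1 and 37.5 and 33.3 FPKM with shPcyt2-2. Each of the knockdown libraries exceeded both shNT libraries. It rose by 0.50 on the log2 scale with shPcyt2-1 (standard error 0.08, limma adjusted p = 0.00413) and by 0.40 with shPcyt2-2 (standard error 0.08, limma adjusted p = 0.0181). The call with shPcyt2-2 was lost without shNT replicate 2 and without shPcyt2-2 replicate 1.

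CLDN12 lay at 13.9 and 12.8 FPKM with shNT, 19.5 and 17.9 FPKM with shPcyt2-1 and 17.7 and 15.4 FPKM with shPcyt2-2. Each knockdown library was higher than both shNT libraries, and the change was 0.46 with shPcyt2-1 (limma adjusted p = 0.00865) but missed the threshold with shPcyt2-2 (0.29, limma adjusted p = 0.0698). CLDN15, a claudin that forms cation pores in the intestine, lay at 16.3 and 16.9 FPKM with shNT, 14.5 and 16.2 FPKM with shPcyt2-1 and 12.1 and 11.6 FPKM with shPcyt2-2. It fell with shPcyt2-2 (-0.45, limma adjusted p = 0.0133), and its value with shPcyt2-1 was -0.11 (limma adjusted p = 0.370). MARVELD3, a relative of occludin, lay at 5.54 and 5.61 FPKM with shNT, 7.67 and 6.75 FPKM with shPcyt2-1 and 5.25 and 5.28 FPKM with shPcyt2-2. Its rise with shPcyt2-1 (0.32, limma adjusted p = 0.0368) was lost when any of the 4 libraries compared was left out and with median-ratio scaling. The call of CLDN12 was lost without shPcyt2-1 replicate 1, and that of CLDN15 without shNT replicate 2 or either shPcyt2-2 library.

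The most abundant claudins did not pass the test. CLDN4 lay at 206 and 223 FPKM with shNT, 187 and 199 FPKM with shPcyt2-1 and 194 and 212 FPKM with shPcyt2-2. CLDN7, which binds EPCAM, lay at 199.9 and 204 FPKM with shNT, 187 and 199.5 FPKM with shPcyt2-1 and 193 and 190.3 FPKM with shPcyt2-2. All CLDN7 values in knockdown libraries were below those with shNT, by little (log2 fold change -0.07, 95% interval -0.19 to 0.06, with shPcyt2-1, and -0.08, 95% interval -0.20 to 0.05, with shPcyt2-2). OCLN, MARVELD2 (tricellulin, which seals the points where 3 cells meet) and F11R (junctional adhesion molecule A) had log2 fold changes between -0.07 and 0.30 with either hairpin, none called. OCLN and MARVELD2 were nevertheless above both shNT values in all 4 knockdown libraries.

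**Figure D3:**
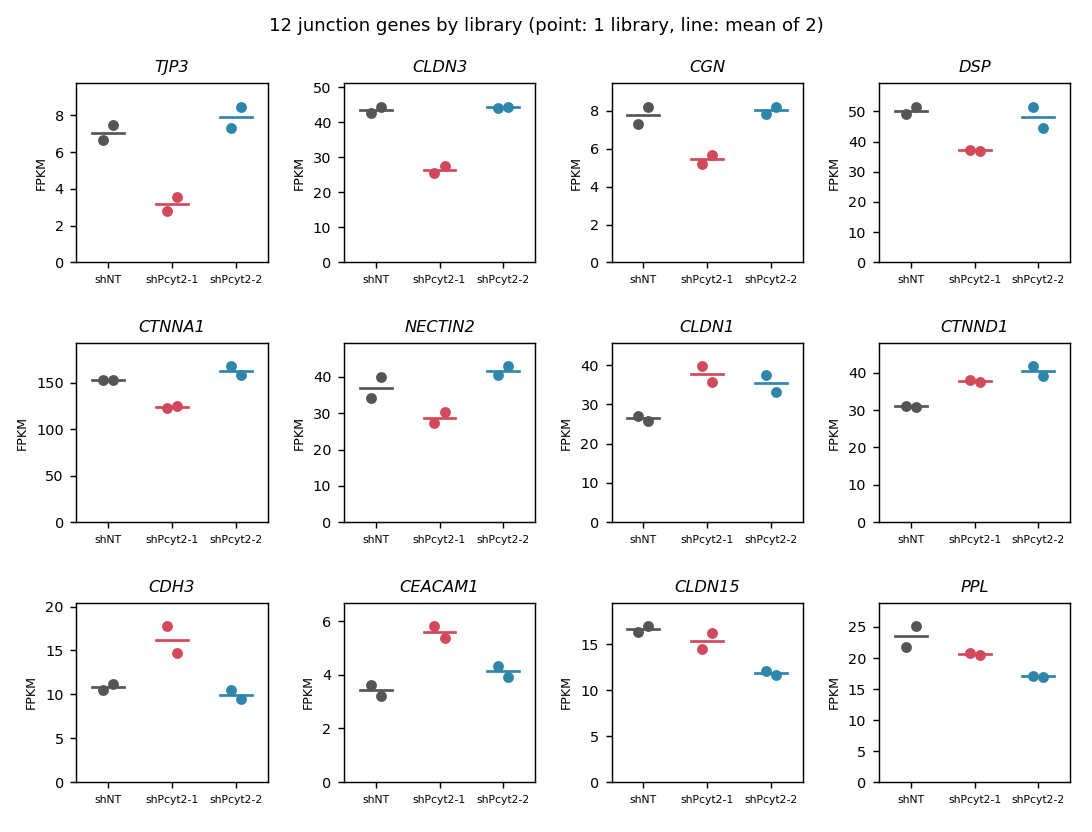
FPKM (vertical axes, from 0) of 12 junction genes in each library, with the mean of each group of 2 as a line. TJP3, CLDN3, CGN, DSP, CTNNA1 and NECTIN2 are low in both shPcyt2-1 libraries, CLDN1 and CTNND1 are high in all 4 knockdown libraries, and CLDN15 and PPL are lowest in the shPcyt2-2 libraries.

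The plaque and polarity proteins held the largest log2 fold change of the 36 tested members. TJP3, which encodes the zonula occludens protein ZO-3 (ENSG00000105289, chromosome 19 of GRCh38, 3708109 to 3750813), lay at 6.65 and 7.47 FPKM with shNT, 2.77 and 3.56 FPKM with shPcyt2-1 and 7.32 and 8.48 FPKM with shPcyt2-2. The mean with shPcyt2-1 was 0.449 times that with shNT, and both shPcyt2-1 libraries lay below the other 4. The log2 fold change was -0.96 (standard error 0.12, limma adjusted p = 0.00158) with shPcyt2-1 and 0.14 (95% interval -0.13 to 0.42, limma adjusted p = 0.462) with shPcyt2-2. TJP1, the gene of the related ZO-1, was not called: it lay at 3.80 and 3.33 FPKM with shNT and at 4.37 and 3.25 FPKM with shPcyt2-1 (log2 fold change 0.07, 95% interval -0.22 to 0.36).

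CGN, whose product cingulin binds the zonula occludens proteins, was low in the same libraries as TJP3. It lay at 7.33 and 8.19 FPKM with shNT, 5.21 and 5.67 FPKM with shPcyt2-1 and 7.83 and 8.23 FPKM with shPcyt2-2. The log2 fold change with shPcyt2-1 was -0.44 (limma adjusted p = 0.0110), a call that was lost without shNT replicate 2 and without shPcyt2-1 replicate 1. PARD6B, a subunit of the PAR polarity complex, lay at 4.005 and 3.49 FPKM with shNT, 4.90 and 4.81 FPKM with shPcyt2-1 and 4.72 and 4.91 FPKM with shPcyt2-2. It was higher in all 4 knockdown libraries, and its call with shPcyt2-1 (0.30, limma adjusted p = 0.0492) was lost under 7 of 14 alternatives. PARD3, the scaffold of that complex, was at -0.28 with shPcyt2-1 (limma adjusted p = 0.0713). PATJ, the most abundant member of the group with shPcyt2-2, lay at 7.90 and 6.92 FPKM with shNT, 7.26 and 7.32 FPKM with shPcyt2-1 and 9.20 and 8.84 FPKM with shPcyt2-2, and did not pass the test with either hairpin. In all, 1 of the 6 genes rose and 2 fell with shPcyt2-1, beside 16.5% and 10.1% of all tested genes. With shPcyt2-2 none of the 6 was called by limma, beside 12.4% of all tested genes, and 2 had an unadjusted p under 0.05, beside 3971 of all 12756.

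Of the cadherins, catenins, nectins and afadin, 5 of the 8 tested genes were called with shPcyt2-1. Of these, 3 were higher and 2 lower (beside 16.5% and 10.1% of all tested genes). With shPcyt2-2, 2 of the 8 were called, both higher (beside 7.69%). The catenins CTNND1 and CTNNA1 moved apart with shPcyt2-1. CTNND1, which encodes p120-catenin, the stabilizer of cadherins at the membrane (ENSG00000198561, chromosome 11 of GRCh38, 57753243 to 57819546), lay at 31.2 and 30.8 FPKM with shNT, 38.1 and 37.5 FPKM with shPcyt2-1 and 41.7 and 39.2 FPKM with shPcyt2-2. It was higher in all 4 knockdown libraries, by 0.28 with shPcyt2-1 (standard error 0.07, limma adjusted p = 0.0161) and 0.37 with shPcyt2-2 (standard error 0.07, limma adjusted p = 0.0113) on the log2 scale. CTNNA1 lay at 153 and 153.3 FPKM with shNT, 123.5 and 125.5 FPKM with shPcyt2-1 and 168 and 159 FPKM with shPcyt2-2. It fell with shPcyt2-1 (-0.30, standard error 0.06, limma adjusted p = 0.00660) and had a value of 0.09 with shPcyt2-2 (95% interval -0.03 to 0.22). The CTNND1 call with shPcyt2-1 was lost when either shPcyt2-1 library was left out, that with shPcyt2-2 without shPcyt2-2 replicate 1, and the CTNNA1 call without shPcyt2-1 replicate 1.

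The nectins, which start contacts between cells, went both ways. NECTIN1 lay at 21.5 and 23.2 FPKM with shNT, 30.2 and 29.6 FPKM with shPcyt2-1 and 24.3 and 22.9 FPKM with shPcyt2-2, and rose with shPcyt2-1 by 0.40 on the log2 scale (limma adjusted p = 0.00550). NECTIN2 lay at 34.1 and 39.99 FPKM with shNT, 27.2 and 30.3 FPKM with shPcyt2-1 and 40.6 and 42.9 FPKM with shPcyt2-2. It fell with shPcyt2-1 (-0.35, limma adjusted p = 0.0217), a call lost without shNT replicate 2 and without shPcyt2-1 replicate 1. NECTIN4 and AFDN, whose product afadin ties nectins to actin, had log2 fold changes between 0.09 and 0.25 with either hairpin, none called.

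The cadherins differed by hairpin. CDH3, which encodes P-cadherin, lay at 10.5 and 11.2 FPKM with shNT, 17.8 and 14.7 FPKM with shPcyt2-1 and 10.5 and 9.42 FPKM with shPcyt2-2. It rose with shPcyt2-1 (0.54, standard error 0.10, limma adjusted p = 0.00746), not so without shPcyt2-1 replicate 1, while the shPcyt2-2 libraries overlapped shNT. CDH17, which encodes the liver-intestine cadherin, lay at 1.00 and 0.968 FPKM with shNT, 0.969 and 1.14 FPKM with shPcyt2-1 and 1.89 and 1.72 FPKM with shPcyt2-2. It rose with shPcyt2-2 (0.50, standard error 0.11, limma adjusted p = 0.0212), the largest change of a member with that hairpin, and the call was lost without shNT replicate 2 and without shPcyt2-2 replicate 1. E-cadherin (CDH1), outside the 40, lay at 15.1 and 14.7 FPKM with shNT, 15.1 and 15.4 FPKM with shPcyt2-1 and 17.3 and 16.9 FPKM with shPcyt2-2, and was not called with either hairpin (0.03 and 0.19, limma adjusted p = 0.763 and 0.120). N-cadherin (CDH2) was not listed in any library.

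Desmosome genes changed in both directions with shPcyt2-1. Of the 9 tested genes, 3 fell with that hairpin (DSP, EVPL and PKP3) and 1 rose (DSG2), where 10.1% of all tested genes fell and 16.5% rose. With shPcyt2-2 PPL fell and none rose, beside 4.74% and 7.69% of all tested genes. DSP, the gene of the protein that anchors keratin filaments, lay at 49.0 and 51.3 FPKM with shNT, 37.3 and 37.0 FPKM with shPcyt2-1 and 51.6 and 44.4 FPKM with shPcyt2-2. Both shPcyt2-1 libraries were below the other 4, and the log2 fold change was -0.42 (standard error 0.08, limma adjusted p = 0.00655). With shPcyt2-2 it was -0.07 (95% interval -0.24 to 0.11). DSG2, the desmoglein of simple epithelia, lay at 22.3 and 20.4 FPKM with shNT, 28.1 and 27.1 FPKM with shPcyt2-1 and 29.1 and 24.3 FPKM with shPcyt2-2. It was higher in all 4 knockdown libraries, by 0.35 on the log2 scale with shPcyt2-1 (limma adjusted p = 0.0241), and missed the threshold with shPcyt2-2 (0.30, limma adjusted p = 0.0635). DSG2 lost its call without shNT replicate 2 or either shPcyt2-1 library.

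The plakins PPL (periplakin) and EVPL (envoplakin), partners in linking desmosomes to keratins, were lower in all 4 knockdown libraries than in both shNT libraries. PPL lay at 21.8 and 25.1 FPKM with shNT, 20.9 and 20.4 FPKM with shPcyt2-1 and 17.1 and 16.9 FPKM with shPcyt2-2, and fell with shPcyt2-2 (-0.44, limma adjusted p = 0.0143). EVPL lay at 6.51 and 7.16 FPKM with shNT, 5.14 and 5.02 FPKM with shPcyt2-1 and 6.36 and 6.02 FPKM with shPcyt2-2, and fell with shPcyt2-1 (-0.36, limma adjusted p = 0.0210). Both calls were lost without shNT replicate 2 and when either library of the hairpin was left out. PKP3, a plakophilin, lay at 85.3 and 94.1 FPKM with shNT, 70.8 and 75.4 FPKM with shPcyt2-1 and 72.2 and 79.7 FPKM with shPcyt2-2, below both shNT libraries throughout. Its fall passed the test with shPcyt2-1 (-0.29, limma adjusted p = 0.0229), not so without shNT replicate 2 or shPcyt2-1 replicate 1, and missed it with shPcyt2-2 (-0.24, limma adjusted p = 0.0705).

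JUP, the most abundant desmosome gene, lay at 181 and 187.5 FPKM with shNT, 164 and 181 FPKM with shPcyt2-1 and 166 and 178 FPKM with shPcyt2-2 (log2 fold change -0.10 with each hairpin, limma adjusted p = 0.302 and 0.345). PKP2, PKP4 and DSC2 had values between -0.18 and 0.20 with either hairpin, none called. KRT8 and KRT18, keratin partners of desmosomes, fell with shPcyt2-2, the hairpin with which PPL also fell. KRT8 lay at 3602 and 3861 FPKM with shNT, 3540 and 3649 FPKM with shPcyt2-1 and 2734 and 2874 FPKM with shPcyt2-2. Its log2 fold change with shPcyt2-2 was -0.41 (limma adjusted p = 0.00483), and KRT18 fell by 0.45 with that hairpin (limma adjusted p = 0.00319). Both keratins are epithelial markers, and the sum of the 10 epithelial markers was between 8201 and 8759 FPKM with shNT and shPcyt2-1 but 6245 and 6542 FPKM with shPcyt2-2. KRT8, KRT18 and KRT19 carry this sum. For the other tested markers the log2 fold change with shPcyt2-2 was 0.50 for CDH17, 0.28 for CDX1, 0.14 for VIL1, 0.11 for EPCAM, -0.06 for CDX2 and -0.37 for LGALS4, of which only CDH17 was called. With shPcyt2-1 the keratins were not called, while LGALS4 (-0.58, limma adjusted p = 0.0162) and CDX2 (-0.65, limma adjusted p = 0.00138) fell. The calls of KRT8 and KRT18 were lost without shPcyt2-2 replicate 1 (-0.38 and -0.41), and that of LGALS4 without shPcyt2-1 replicate 1 (-0.40) or shNT replicate 2 (-0.53). The part of these marker differences in the junction results was not tested.

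Among the immunoglobulin-type adhesion molecules, CEACAM1 rose with shPcyt2-1. It lay at 3.63 and 3.23 FPKM with shNT, 5.81 and 5.39 FPKM with shPcyt2-1 and 4.35 and 3.91 FPKM with shPcyt2-2. Each knockdown library was above both of the shNT values, and the log2 fold change was 0.58 (standard error 0.10, limma adjusted p = 0.00534) with shPcyt2-1 and 0.21 (limma adjusted p = 0.195) with shPcyt2-2. CEACAM6 lay between 0.356 and 0.653 FPKM and ALCAM, an activated leukocyte adhesion molecule that epithelia also carry, at 1.83 and 1.20 FPKM with shNT and between 1.81 and 1.84 FPKM in the 4 knockdown libraries, and neither was called. CEACAM genes have near-identical stretches, and how reads were shared among them is not given in the sources used here, so their values are uncertain.

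The hairpins themselves were compared over the same genes. Of the 36 tested members, 13 differed between shPcyt2-2 and shPcyt2-1 (36.1%), 7 higher and 6 lower with shPcyt2-2, where 27.1% of all tested genes differed, 12.9% higher and 14.2% lower. The choice of members with earlier results known limits the reading of this share too. Of the tested genes of the wider junction list, 26.2% differed. With median-ratio scaling 9 members were higher and 5 lower, and among all genes the calls went from 1648 higher and 1815 lower to 1862 higher and 1671 lower. TJP3 differed most, by 1.098 on the log2 scale (95% interval 0.82 to 1.37, limma adjusted p = 0.000501), followed by CLDN3 at 0.72 (95% interval 0.57 to 0.88, limma adjusted p = 0.000243) and CDH3 at -0.65 (95% interval -0.88 to -0.41, limma adjusted p = 0.00255). NECTIN2 (0.52), CGN (0.49), CDH17 (0.45), CTNNA1 (0.39) and DSP (0.36) were higher with shPcyt2-2, and MARVELD3 (-0.39), CEACAM1 (-0.36), CLDN15 (-0.35), NECTIN1 (-0.33) and PPL (-0.26) were lower, all with a limma adjusted p under 0.05. The differences of TJP3, CLDN3, CDH3, NECTIN2 and CTNNA1 kept their calls under all 14 alternatives. The split into higher and lower depended on single libraries. Without shPcyt2-2 replicate 2, the calls lost were those of CEACAM1, CLDN15, MARVELD3, NECTIN1 and PPL, all lower with shPcyt2-2, with their direction kept. Leaving out shPcyt2-1 replicate 1 gave a count of 7, beside 1662 of all 12756 tested genes, and leaving out shPcyt2-2 replicate 2 gave 8, beside 1998 of 12751.

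**Figure D4:**
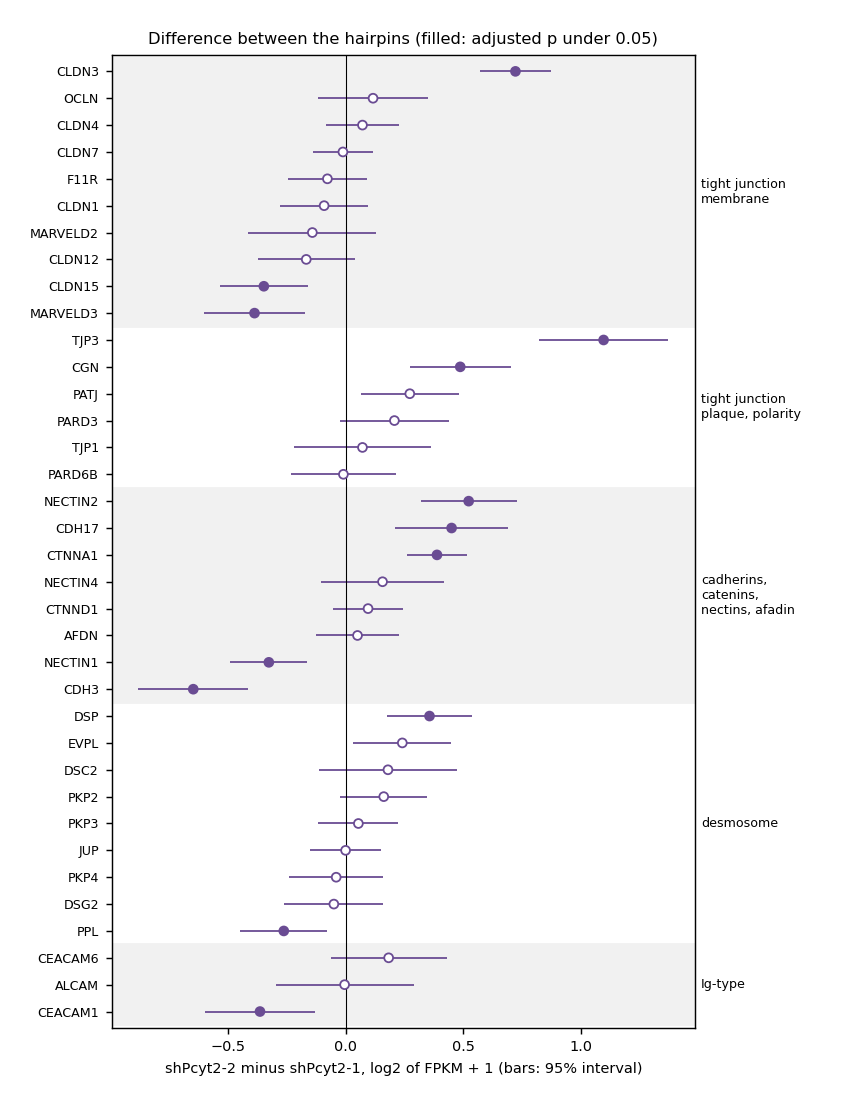
Difference between the hairpins, shPcyt2-2 minus shPcyt2-1, on the log2(FPKM + 1) scale (horizontal axis, bars: 95% interval) for the 36 tested junction genes; filled points have a limma adjusted p under 0.05. TJP3 (1.098) and CLDN3 (0.72) lie to the right and CDH3 (-0.65) to the left, while CLDN1, CTNND1, DSG2 and PKP3 lie near 0.

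Members whose 4 knockdown libraries all lay on one side of shNT included some with a difference between the hairpins near 0. CLDN1 differed by -0.09 (95% interval -0.28 to 0.09), CTNND1 by 0.10 (95% interval -0.05 to 0.24), PARD6B by -0.01 (95% interval -0.23 to 0.21), DSG2 by -0.05 (95% interval -0.26 to 0.16) and PKP3 by 0.05 (95% interval -0.12 to 0.22). An adjusted p that misses the threshold does not show that the hairpins act alike on these genes.

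With the 4 knockdown libraries pooled against shNT, 0 of 36 members were called by limma, and 8 had an unadjusted p under 0.05, where 0.00784% of all tested genes were called and 16.7% had an unadjusted p under 0.05. All 4 knockdown libraries lay above both shNT libraries for 9 members (CLDN1, CLDN12, OCLN, MARVELD2, PARD6B, CTNND1, AFDN, DSG2 and CEACAM1), beside 20.7% of all tested genes. They lay below both for 6 members (CLDN7, CLDN15, JUP, PKP3, PPL and EVPL), beside 9.48% of all tested genes, and 4 of these 6 are desmosome genes. In the fit with 3 groups, whose spread leaves out the difference between hairpins, the mean of both hairpins passed for 13 members. Of these, CLDN1 (0.45), CEACAM1 (0.39), CLDN12 (0.37), DSG2 (0.33), CTNND1 (0.32), PARD6B (0.30) and NECTIN1 (0.24) were higher and TJP3 (-0.41), CLDN3 (-0.34), PPL (-0.31), CLDN15 (-0.28), PKP3 (-0.26) and DSP (-0.24) lower (limma adjusted p between 0.00729 and 0.0437), where 16.8% of all tested genes passed, 10.9% higher and 5.85% lower. For TJP3, CLDN3, DSP, NECTIN1, CEACAM1, CLDN15 and PPL, 7 of the 13, this mean joins values that differed between the hairpins.

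A wider list of 67 other junction genes was read the same way. Of these, 42 were tested, and 9 were called with shPcyt2-1 (4 higher, 5 lower), 8 with shPcyt2-2 (6 higher, 2 lower) and 11 in the difference between hairpins (8 higher, 3 lower). Their shares of 21.4%, 19.0% and 26.2% lie beside 26.7%, 12.4% and 27.1% of all tested genes. The genes not listed in any library were CLDN8, MPDZ, CDH2, CDH6, CTNNA3, DSC1 and CEACAM7. Pooled, none of the 42 was called by limma, and 9 had an unadjusted p under 0.05, beside 16.7% of all tested genes.

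The largest difference between hairpins in this list was that of BCAM, a laminin-binding adhesion molecule. It lay at 12.7 and 12.01 FPKM with shNT, 8.20 and 10.4 FPKM with shPcyt2-1 and 23.9 and 22.3 FPKM with shPcyt2-2, so that it fell with the first hairpin (-0.38, limma adjusted p = 0.0298) and rose with the second (0.85, limma adjusted p = 0.00356). The hairpins differed by 1.24 (95% interval 0.99 to 1.48, limma adjusted p = 0.000144), while the fall with shPcyt2-1 was lost without either shNT library or without shPcyt2-1 replicate 1, and the rise with shPcyt2-2 without shPcyt2-2 replicate 1. AMOTL2, an angiomotin that binds YAP1 at junctions, lay at 7.14 and 7.71 FPKM with shNT, 6.47 and 6.45 FPKM with shPcyt2-1 and 11.8 and 12.2 FPKM with shPcyt2-2. It rose with shPcyt2-2 only (0.63, limma adjusted p = 0.00501), which left it 0.80 higher than with shPcyt2-1 (limma adjusted p = 0.000401).

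CXADR and CLDN11 moved one way with both hairpins. CXADR, the coxsackievirus and adenovirus receptor of tight junctions, lay at 4.58 and 3.98 FPKM with shNT, 7.36 and 6.52 FPKM with shPcyt2-1 and 7.04 and 5.82 FPKM with shPcyt2-2. It rose by 0.59 (limma adjusted p = 0.00806) with shPcyt2-1, not so without shPcyt2-1 replicate 1, and by 0.49 (limma adjusted p = 0.0290) with shPcyt2-2, not so without shNT replicate 2 or shPcyt2-2 replicate 1. CLDN11 lay at 29.6 and 30.5 FPKM with shNT, 37.5 and 37.9 FPKM with shPcyt2-1 and 44.4 and 45.6 FPKM with shPcyt2-2. It rose by 0.32 with the first hairpin (limma adjusted p = 0.00824), by 0.57 with the second (limma adjusted p = 0.00247), and the 3 groups did not overlap. The first of these calls was lost without either shPcyt2-1 library (0.31 and 0.32). Of the polarity genes, PALS1 rose with shPcyt2-2 (0.53, limma adjusted p = 0.0163) and PARD6A fell with it (-0.54, limma adjusted p = 0.0237). With shPcyt2-1 PRKCI rose (0.35, limma adjusted p = 0.0290), and SCRIB (-0.48, limma adjusted p = 0.0498) and LLGL2 (-0.23, limma adjusted p = 0.0396) fell. TJAP1 rose with shPcyt2-1 (0.33, limma adjusted p = 0.0314), and DSG3, a desmoglein, lay at 1.275 and 1.035 FPKM with shNT, 1.55 and 1.46 FPKM with shPcyt2-1 and 0.640 and 0.615 FPKM with shPcyt2-2. DSG3 fell with shPcyt2-2 (-0.40, limma adjusted p = 0.0440), a call lost whichever library was left out, and the hairpins differed by -0.62 (limma adjusted p = 0.00383). The calls of PALS1, PARD6A, PRKCI, SCRIB and TJAP1 were all lost without shNT replicate 2, and also under other alternatives, that of SCRIB under 9 of 14.

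CTNNB1, EPCAM and VIM, given whatever their change, did not pass with either hairpin. CTNNB1, the gene of beta-catenin, lay at 287 and 285 FPKM with shNT, 339 and 312.5 FPKM with shPcyt2-1 and 338 and 303 FPKM with shPcyt2-2, with log2 fold changes of 0.19 and 0.16 (limma adjusted p = 0.0702 and 0.145). EPCAM lay at 281 and 258 FPKM with shNT, 312 and 298 FPKM with shPcyt2-1 and 308 and 275 FPKM with shPcyt2-2. VIM, the gene of the mesenchymal filament vimentin, lay at 86.5 and 83.6 FPKM with shNT, 71.6 and 78.8 FPKM with shPcyt2-1 and 78.4 and 76.9 FPKM with shPcyt2-2. It was thus lower in all 4 knockdown libraries, with log2 fold changes of -0.18 and -0.13 (limma adjusted p = 0.0753 and 0.213).

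Of 6 repressors that are known to act on junction genes, 4 were tested, and none was called by limma against shNT (beside 26.7% and 12.4% of all tested genes), with 1 at an unadjusted p under 0.05 for each hairpin (beside 5211 and 3971 of all 12756 tested genes). SNAI2 lay at 0.885 and 1.08 FPKM with shNT, 1.47 and 1.69 FPKM with shPcyt2-1 and 1.27 and 0.863 FPKM with shPcyt2-2 (0.38 with shPcyt2-1, limma adjusted p = 0.0550). ZEB1 lay at 0.835 and 0.684 FPKM with shNT, 0.686 and 0.595 FPKM with shPcyt2-1 and 1.27 and 1.20 FPKM with shPcyt2-2 (0.35 with shPcyt2-2, limma adjusted p = 0.0658). It was the 1 repressor of 4 called in the difference between hairpins (0.45, limma adjusted p = 0.0155), beside 27.1% of all tested genes, a call lost without either shPcyt2-1 library or without shPcyt2-2 replicate 1. SNAI1 was between 7.54 and 9.99 FPKM in the 6 libraries, TWIST2 between 0.377 and 0.751 FPKM, and ZEB2 and TWIST1 were listed in 2 libraries and 1 library.

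Factors that are known to promote epithelial or intestinal genes fell with shPcyt2-1 in 4 of 9 tested cases and rose in none, where 10.1% of all tested genes fell. CDX2, an intestinal homeobox factor, lay at 15.5 and 16.9 FPKM with shNT, 10.01 and 9.88 FPKM with shPcyt2-1 and 16.0 and 15.1 FPKM with shPcyt2-2 (-0.65 with shPcyt2-1, limma adjusted p = 0.00138). ELF3, an epithelial ETS factor, lay at 24.3 and 26.4 FPKM with shNT, 16.5 and 16.4 FPKM with shPcyt2-1 and 25.2 and 29.4 FPKM with shPcyt2-2 (-0.60 with shPcyt2-1, limma adjusted p = 0.00264). Both were low in the shPcyt2-1 libraries only, as were TJP3 and CLDN3. HNF4A, a nuclear receptor of gut epithelium, lay at 31.9 and 36.1 FPKM with shNT, 24.8 and 25.02 FPKM with shPcyt2-1 and 25.4 FPKM in both libraries with shPcyt2-2. It fell with shPcyt2-1 (-0.43, limma adjusted p = 0.00505) and also with shPcyt2-2 (-0.40, limma adjusted p = 0.0144), the latter not without shNT replicate 2 or either shPcyt2-2 library. In the difference between the hairpins 6 of the 9 were called, 5 higher with shPcyt2-2 and 1 lower, beside 27.1% of all tested genes. The differences of ELF3, KLF4 and CDX2 kept their calls under all 14 alternatives. Those of CDX1, KLF5 and OVOL2 kept their direction but lost the call whichever knockdown library was left out. KLF4 fell with shPcyt2-1 as well (-0.38, limma adjusted p = 0.0481), a call that was lost under 7 of 14 alternatives. The fit with the library number as a replicate block was among these. These levels stand beside those of the junction genes as values, and their part in the junction results was not tested.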

How the data were processed

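RNA-Seq tables of 6 libraries of SW480 cells were used, 1 table per library (shNT, shPcyt2-1 and shPcyt2-2, 2 each). The authors deposited normalized values per Ensembl identifier, taken to be FPKM; TPM over part of the genes cannot be told apart. The tables list only genes above 0, and hold 0 of 13 coding genes of the mitochondrial genome. The submitters' processing notes name GRCm38, mm10 and GRCh38 without their roles, 2 library kits are named in the labels but not the libraries made with each, and the aligner and the counting of reads, strand included, are not given in the sources used here. The paper names an R package that needs counts, in place of which limma was used.

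Of 21539 identifiers, 115 repeated within a library were summed, and 1045 groups of identical rows were merged, leaving 19655 genes. Symbols and coordinates were taken from GENCODE release 29 (GRCh38), in which 19504 of the identifiers were found. Genes with a mean of at least 0.5 FPKM (12756) entered the tests, made on log2(FPKM + 1) by limma 3.58.1 (R 4.3.3) with its variance trend, and p-values were adjusted over all of them by the Benjamini-Hochberg method. Single hairpins and their difference came from a fit with 3 groups, the pooled comparison from a fit with 2 groups. The fits were tested on a single simulated data set, in which the share of false calls for each hairpin against shNT was above the adjusted threshold. Fewer genes were changed in it than were called in the data, and the hairpins did not differ. The members and gene lists were chosen with earlier results of these data known. Values in every library are given for up to 14 called members per comparison whose libraries do not overlap, by size of change, for the 2 most abundant members of each junction type, and for up to 6 other junction genes per comparison by the same rule (some genes of that list are not reported here), plus CDH1, CTNNB1, EPCAM and VIM. CTNNA1 and PKP3, called with shPcyt2-1 outside the first 14, are given in full as abundant members, and CTNND1 likewise. No read totals are in the tables, so no counting interval is given. Alternatives covered the pseudocount, the expression limit, scaling, the variance model, the replicate block, each library left out, repeated rows and the grouping of the hairpins. Figures were drawn with matplotlib 3.10.9.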

Additional observations from a re-analysis of the deposited data

Results flagged for a closer look

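The change against shNT differed between the hairpins for 13 of the 36 tested members (limma, adjusted p under 0.05). Values are differences of log2(FPKM + 1), shPcyt2-2 minus shPcyt2-1, each over 2 libraries a group. Higher with shPcyt2-2 were TJP3 (1.098), CLDN3 (0.72), NECTIN2 (0.52), CGN (0.49), CDH17 (0.45), CTNNA1 (0.39) and DSP (0.36). Lower with shPcyt2-2 were CDH3 (-0.65), MARVELD3 (-0.39), CEACAM1 (-0.36), CLDN15 (-0.35), NECTIN1 (-0.33) and PPL (-0.26). Of all tested genes, 27.1% differed in this way. The TJP3, CLDN3, CDH3, NECTIN2 and CTNNA1 differences passed under all 14 alternatives, while each of the other 8 was lost without at least 1 library and that of PPL under 7 alternatives. PCYT2 itself differed between the hairpins by -0.15 (limma adjusted p = 0.309).

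Among the 4 knockdown libraries, 0 of the 36 tested members had a library far from the other 3 by Dixon's ratio. For 4 values of the same population, chance alone passes it in about 1 in 20 groups. These libraries join 2 hairpins that differed for 13 members, so the 0 does not show that no library deviates.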

How the results depend on the processing

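The 35 calls of members kept their direction under every alternative run, and 11 kept their side of the threshold under all of them. Fewer calls passed where no expression limit was set, which raised the number of genes tested: 11 with shPcyt2-1, beside 9.38% of all tested genes, and 0 with shPcyt2-2 by limma (11 at an unadjusted p under 0.05), beside 0.631%. Over the fits that each leave out 1 library, the number of calls lay between 6 and 17 with shPcyt2-1, between 0 and 6 with shPcyt2-2 and between 7 and 14 in the difference between hairpins, and was 0 throughout in the pooled comparison. With the mean of the hairpins taken from the fit with 3 groups, 13 members passed in place of 0, beside 16.8% of all tested genes. The medians of the members are close to 0 and moved with the setting. With shPcyt2-1 the median was -0.018 at an expression limit of 2 and -0.0483 with median-ratio scaling, and lay between -0.017 and 0.048 with each library left out. With shPcyt2-2 it was 0.0449 and 0.0312 under the same 2 settings and lay between 0.0446 and 0.1091 with each library left out, and the median difference between the hairpins was 0.0853 with median-ratio scaling and lay between 0.0397 and 0.0766 with each library left out. The pooled median was -0.0069 with no expression limit, -0.0293 at a limit of 2 and 0.0144 with median-ratio scaling, and lay between 0.0142 and 0.0962 with each library left out. For all tested genes, median-ratio scaling took the median from 0.0669 to 0.0002 with shPcyt2-1 and from 0.0438 to -0.0003 with shPcyt2-2. The cause of these shifts was not tested. Where 1 library was left out, the lone library of its group was assumed to vary like the others.

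The libraries of each group are numbered 1 and 2 in the labels. Deviations of same-numbered libraries from their group means correlated by 0.0027 (shNT and shPcyt2-1), 0.0619 (shNT and shPcyt2-2) and 0.191 (shPcyt2-1 and shPcyt2-2). These values do not settle whether same-numbered libraries share more than the number. With the number as a replicate block, 18 members were called with shPcyt2-1, beside 30.4% of all tested genes, and 8 with shPcyt2-2, beside 15.9%. The tables give no depth, and 2 libraries per group limit what could be seen.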
